A study of Mus musculus with 12 samples.

Results

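Recurrent intronic 5hmC regions are places inside introns where a 5-hydroxymethylcytosine peak was listed in 4 or 5 of 6 hippocampal libraries. Peaks of the 6 deposited lists on chromosomes 1 to 19 were merged when they shared at least 1 bp, which gave 74401 regions. Of these, 2466 had a peak in exactly 4 or 5 libraries and overlapped a transcript body, but no exon and no base within 1 kb of a transcript start (mm9, RefSeq transcripts of the control RNA table). They are called members here. They made up 3.31% of all regions and 35.5% of the 6955 regions with a peak in 4 or 5 libraries. The other recurrent regions were 2404 between genes, 1541 on exons and 544 at promoters. The members were chosen by the presence of peaks in these same libraries, so the number of libraries with a peak is a description and supports nothing.

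The libraries came from whole hippocampus of male C57BL/6 mice. The stress group (6 mice) was restrained for 30 min in a tube and then left alone in a clean cage for 1 h. The control group (5 mice) was taken from the cage at the time restraint began and was not restrained. Both groups received brief isoflurane before tissue was taken. DNA was pooled from 2 mice per library, except for 1 library of a single mouse, which gave 3 stress and 3 control 5hmC libraries. The mouse numbers put the single mouse among the control libraries, and the labels do not say in which. RNA of the same mice in the same combinations is summarised in 1 table per group. The sample tags give postnatal day 28 and the protocol gives 7 weeks as the age. Restraint began 2 h after lights on, and tissue of the restrained mice was taken later in the day than that of the controls, so time of day and restraint cannot be told apart. In bulk tissue, fewer cells of a type and less signal per cell cannot be told apart either.

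5hmC is made when TET enzymes oxidise methylated cytosine. It is abundant in neurons, where it lies largely in the bodies of genes and at enhancers, many of which sit inside introns. Introns are spliced out of the transcript, and the first intron of a gene is often long and rich in regulatory sequence. The chemical capture used here adds a tagged glucose to 5hmC, pulls down the tagged fragments and sequences them, so a peak marks a stretch of about a fragment's length or more and not a single base.

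The labelled tissue was checked against marker RNA, in FPKM, a level set per length of transcript and per sequenced total. All 10 markers of excitatory neurons, all 10 of dentate granule cells and all 10 of the CA1 field were at 1 FPKM or more in the control table, as were 9 of 10 CA3 markers. Markers of choroid plexus, which lies next to the hippocampus, reached 1 FPKM for 8 of 10 genes. Their summed level was 235 FPKM for controls and 65.4 after stress. Markers of thalamus and neighbouring tissue were at 1 FPKM or more for 11 of 11 genes, with sums of 54.1 FPKM for controls and 67.8 after stress. Oligodendrocyte markers, 13 of 13 at 1 FPKM or more, summed to 1172 and 1016 FPKM. The part of these cell types in the results below was not tested.

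The lists differed in length, and the share of members with a peak was higher in the 3 longest lists. On chromosomes 1 to 19 the lists held 15177, 27784 and 31636 peaks in stress libraries 1, 2 and 3, and 17176, 27897 and 16303 in control libraries 1, 2 and 3. A peak was present at 59.6%, 84.0% and 86.7% of members in the stress libraries in that order. In the control libraries it was present at 58.6%, 84.2% and 61.5%. Stress libraries 2 and 3 and control library 2, which have the longest lists, were thus the 3 high ones, and the groups overlapped. Among the shorter lists the share did not follow length, since control library 1 had the longest of them and the lowest share. Member peaks made up 6.80% to 9.71% of each list.

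**Figure D1:**
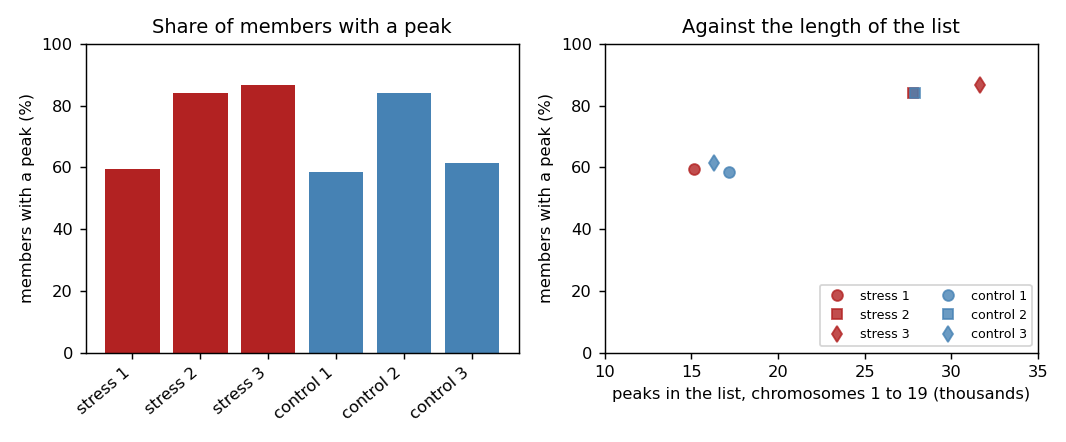
Left, the percentage of the 2466 members with a peak in each of 3 stress (red) and 3 control (blue) libraries. Right, the same percentage against the number of peaks in the list on chromosomes 1 to 19. The 3 libraries with lists of 27784 peaks or more lie at 84.0% to 86.7%, and the other 3 at 58.6% to 61.5%.

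Of the members, 1612 had a peak in 4 libraries and 854 in 5. The most frequent combination was a peak in all 3 stress libraries and control library 2, with 322 members. Control libraries 1 and 3, which lack the peak there, are among the 3 shortest lists. Among members with 4 libraries, 504 (31.3%) had a peak in 3 stress and 1 control library, 864 (53.6%) in 2 and 2, and 244 (15.1%) in 1 stress and 3 control libraries. Over all 4530 regions with a peak in 4 libraries, wherever they lay, 33.4% had the first pattern and 12.4% the last. Among members with 5 libraries, 487 (57.03%) had all 3 stress libraries and 367 (43.0%) all 3 control libraries. Over all 2425 regions with 5 libraries, 61.8% had all 3 stress libraries. All recurrent regions include the members, which brings the shares nearer to each other than shares of separate sets would be. Nothing is read from the members' shares. Among members with 5 libraries, stress library 1 was the missing one in 244, control library 1 in 234 and control library 3 in 198. Control library 2, stress library 3 and stress library 2 were missing in only 55, 56 and 67.

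Most of a typical member was covered by at least 4 libraries. The merged region had a median length of 1467.5 bp (middle 80%, 1024 to 2438 bp). The stretch covered by at least 4 libraries had a median of 901.5 bp, or 66.4% of the region. In 33 members no base was covered by 4 libraries, and the peaks overlapped only in a chain. In 2425 members every library with a peak had exactly 1. Just outside the rule lay 2829 intronic regions with a peak in 3 libraries (median length 1287 bp) and 385 with a peak in all 6 (1635 bp). Members with 4 libraries had a median of 1432.5 bp and those with 5 had 1541 bp. Longer regions meet more peaks by merging, so length and library number are not independent.

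The 8 longest members were 4517 to 5723 bp, and in 4 of the first 5 of them stress library 3 had a much longer peak than the other libraries. The longest, 5723 bp in intron 1 of Anp32a (a nuclear phosphoprotein that inhibits protein phosphatase and histone acetylation), lay at chr9:62202355-62208077. Its peaks were 2077 and 5642 bp long in stress libraries 2 and 3, and 2038 and 1702 bp in control libraries 2 and 3. The next in length were in Cyb5 (a haem carrier of the endoplasmic reticulum, 5119 bp) and in Plcg1 (a phospholipase that releases calcium, 4712 bp). Neither held a base covered by 4 libraries. In Litaf (endosomal sorting, 4681 bp) and Ppard (a fatty acid-sensing nuclear receptor, 4662 bp), the core under 4 libraries was 1446 and 1267 bp. The longest single peak in Cyb5 was from control library 3, with 3008 bp, against 2663 bp in control library 2.

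The first comparison asked whether stress changed the extent of 5hmC peaks at members. The median length of member peaks was 1090, 1203 and 1197 bp in stress libraries 1, 2 and 3. It was 1021, 1118.5 and 1052.5 bp in control libraries 1, 2 and 3. The means were 1163 ± 63.6 bp and 1064 ± 49.8 bp (SD, n = 3 each), and the groups overlapped, since control library 2 lay above stress library 1. The exact two-sided permutation p was 0.2 (n = 3 each), and 0.4 after Benjamini-Hochberg adjustment over 4 such tests. An exact test of 3 against 3 libraries cannot go below 0.1, so none of these tests could pass 0.05. What these p-values compare with is the variation from pool to pool. Over whole lists the median peak length was 1028 ± 45.7 bp for stress and 932 ± 34.6 bp for control (SD, n = 3). Member peaks were 1.13 ± 0.0138 times the median of their own list in stress and 1.14 ± 0.0168 times in control libraries (SD, n = 3). Relative to their own lists, the groups' means differed by less than their SD.

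Peaks covered a median of 79.8%, 88.2% and 87.2% of a member in stress libraries 1, 2 and 3. The values were 77.1%, 81.6% and 78.1% in the control libraries. The groups overlapped here too, because control library 2 lay above stress library 1. Mean coverage was 85.1% ± 4.59 in stress and 78.9% ± 2.35 in control libraries (SD; exact permutation p = 0.2, adjusted 0.4, n = 3 each). A member is the union of these same peaks, so coverage depends on peak length and is not a separate line of evidence. It was not set relative to the peak length of the whole list.

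Within each library, peaks of members were longer but lower in score than those of recurrent regions between genes. Scores are the peak caller's own and were turned into percentiles of their own list, from 0 for the lowest to 100 for the highest. The median percentile of member peaks was 61.3, 66.3 and 67.8 in stress libraries 1 to 3, and 63.1, 68.0 and 64.3 in control libraries 1 to 3. Peaks of recurrent intergenic regions had 64.04, 70.3 and 71.6, and 64.3, 71.5 and 65.9. Members were lower in 6 of 6 libraries, with differences from -4.05 to -1.20 percentiles and a mean of -2.81 ± 1.21 (SD, n = 6). The exact sign-flip permutation test over the 6 libraries gave p = 0.03125, the smallest it can give, and 0.0625 after adjustment over 4 such tests, which does not pass 0.05. Member peaks were longer than intergenic ones in 6 of 6 libraries, by 81.5 to 111.5 bp (mean 96 ± 10.95, SD, n = 6). The exact permutation p was again 0.03125 (adjusted 0.0625). Libraries share most of the regions, so they are not fully independent in these 4 tests. Both differences had an adjusted exact permutation p of 0.0417 when a library had to cover 50% of a region, and when promoters were widened to 2.5 kb. Their unadjusted exact permutation p stayed at 0.03125 under these settings. The adjusted value fell because the score test against exonic regions, in the same family of 4, also reached 0.03125. It is therefore no stronger evidence for the differences from intergenic regions.

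Against recurrent regions on exons, the libraries did not all go one way. Member peaks were lower in score percentile in 5 of 6 libraries, by a mean of -4.08 ± 3.87 (SD, n = 6; exact permutation p = 0.09375, adjusted 0.125). Control library 3 was the exception, with members 1.62 percentiles higher. Member peaks were shorter in 4 of 6 libraries, by a mean of -40.5 ± 50.6 bp (exact permutation p = 0.125, adjusted 0.125, n = 6). That mean was -17 bp without stress library 3 and -25.5 bp without stress library 1. The score difference passed (adjusted exact permutation p = 0.0417) under the same 2 settings. In the stress libraries exonic peaks had a median of 1141, 1288 and 1303 bp, against 1014, 1150 and 1029 bp in the control libraries. Touching an exon with 1 base made a region exonic, and long regions touch exons more easily.

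**Figure D2:**
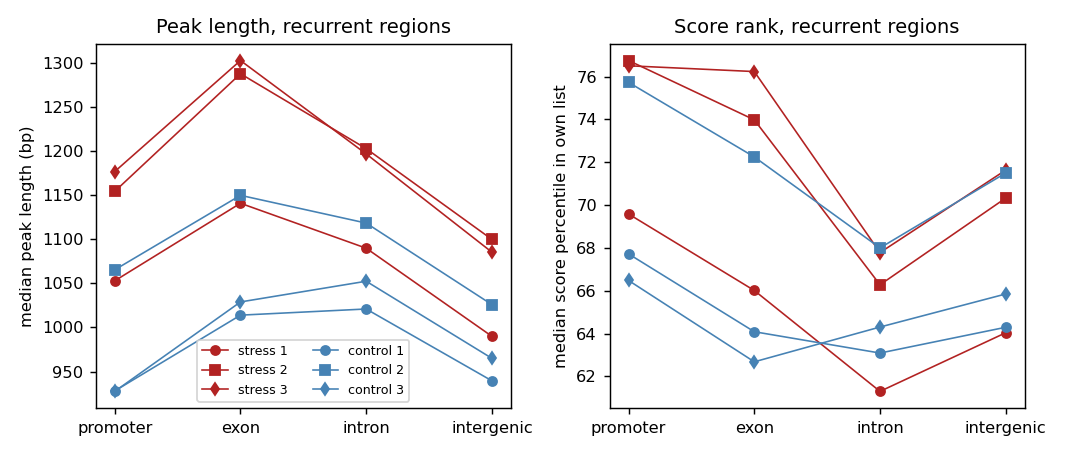
Median peak length in bp (left) and median score percentile within the library's own list (right) for regions with a peak in 4 or 5 libraries, by place in the genome. Each line is 1 library, stress in red and control in blue. In all 6 lines the intronic point lies above the intergenic one for length (by 81.5 to 111.5 bp) and below it for score percentile (differences of -4.05 to -1.20).

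Members lay toward the start of the transcript. Each member was placed on the transcript with most exonic sequence that holds it in an intron. First introns held 1046 members (42.4%), although they hold 25.4% of intronic bases outside the 1 kb after the start. Second introns held 420 (17.0%) and last introns 125 (5.07%, of 7.54% of bases). The first 20% of the transcript held 750 members (30.4%) and the last 20% held 256 (10.4%), where intronic bases are spread 19.3% and 17.9%. The median distance to the transcript start was 43.8 kb, and 585 members (23.7%) lay within 10 kb of it. The intron around a member had a median length of 34.2 kb, counted per member. This was 32.6 kb for intronic regions with a peak in 1 library and 37.4 kb for those in all 6. Few members lay close to an exon: 307 (12.4%) within 1 kb of one, where 24.0% of intronic bases lie. A region must fit between exons to count as intronic, so bases next to exons are partly barred to it.

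The same lean toward the start was present, to a smaller degree, in intronic regions with a peak in a single library. First introns held 34.5% of those 16003 regions, 37.6% of the 8645 with 2 or 3 libraries, 40.9% of members with 4, 45.2% of members with 5, and 43.4% of the 385 with 6. The first 20% of the transcript held 25.0% of single-library regions and 35.3% of those in all 6. These regions share genes and libraries, so the order is given with no test. The share of member peaks in a first intron was 43.1%, 42.2% and 42.9% in stress libraries 1 to 3 and 43.2%, 42.2% and 42.4% in control libraries 1 to 3. The groups overlapped and their means were 42.8% ± 0.49 and 42.6% ± 0.549 (SD, n = 3 each; exact permutation p = 0.9, adjusted 0.9). Each library's share was counted over a subset of the same members, which by choice have a peak in 4 or 5 libraries. The shares were thus bound to be alike, and this test cannot show whether stress left the place of peaks unchanged. The difference turned negative under 4 other settings, and when stress library 1, 2 or 3 or control library 2 was left out.

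**Figure D3:**
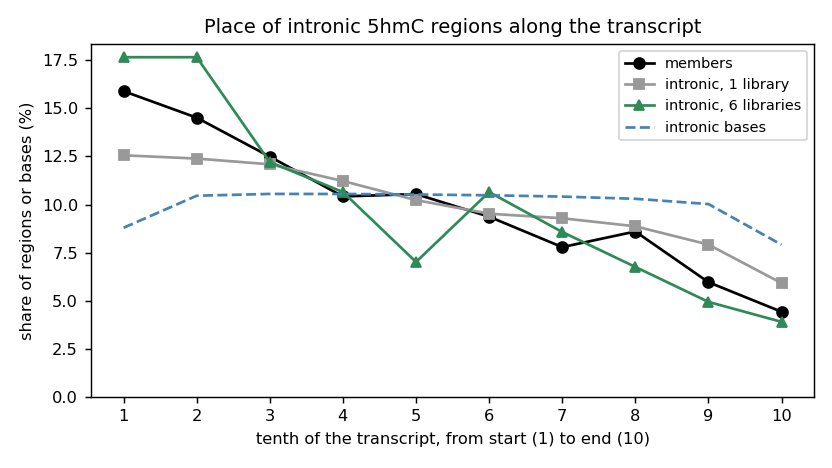
Share of intronic regions (%) in 10 equal parts of the transcript, from its start to its end, for the 2466 members, for 16003 regions with a peak in 1 library and for 385 with a peak in all 6. The dashed line is the share of intronic bases in the same stretch, outside the 1 kb after the start. Members fall from 15.9% in the first stretch to 4.42% in the last, while intronic bases stay between 7.91% and 10.6%.

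Members lay in 1812 of 22835 genes (7.94%). One member was held by 1386 genes, 2 by 283 and 3 or more by 143. Long genes more often held a member. Of the 904 genes of 200 kb and over, 54.1% held one, and of the 3675 genes of 50 to under 200 kb, 24%. The share was 4.78% for genes of 10 to under 50 kb and 0.191% for shorter ones. Only 72 members (2.92%) lay in genes with non-coding RefSeq transcripts alone, and 15 lay in 2 overlapping genes. Per Mb of intron, the density was 2.80 over all genes and ranged from 2.0999 on chromosome 6 to 3.39 on chromosome 5. It did not rise steadily with gene length. Genes under 10 kb had 1.06 per Mb and genes of 10 to under 50 kb had 2.52. The density was 3.38 at 50 to under 200 kb and 2.55 at 200 kb and over. The median distance to the next member was 139 kb, and 179 members (7.26%) had another within 10 kb.

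Expressed genes carried members more densely than silent ones. There were 1.32 members per Mb of intron in genes below 0.1 FPKM and 2.19 in genes at 0.1 to below 1 FPKM. Genes at 1 to below 10 FPKM had 3.20 and genes at 10 to below 100 FPKM had 3.46. Only 13 members lay in genes at 100 FPKM and above (2.84 per Mb of 4.57 Mb). The ratio of genes at 10 to below 100 FPKM over genes below 0.1 FPKM was 2.62. The same ratio was 1.95 for intronic regions of a single library and 3.80 for those in all 6 libraries, the latter from only 20 regions in silent genes. Recounted over the members with a peak in each library, which are subsets of the same chosen set, the ratio was 2.69, 2.57 and 2.59 in the stress libraries and 2.58, 2.72 and 2.98 in the control libraries. The groups overlapped, with means of 2.61 ± 0.0641 in stress and 2.76 ± 0.206 in control libraries (SD, n = 3 each; exact permutation p = 0.3, adjusted 0.4). The difference of -0.15 was -0.048 without stress library 2, and -0.24, -0.33 and -0.29 without control library 1, 2 and 3. Within genes of 50 to under 200 kb, the density was 1.65 per Mb in silent and 4.56 in expressed genes of the same classes. Within genes of 200 kb and over it was 1.44 and 2.63.

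**Figure D4:**
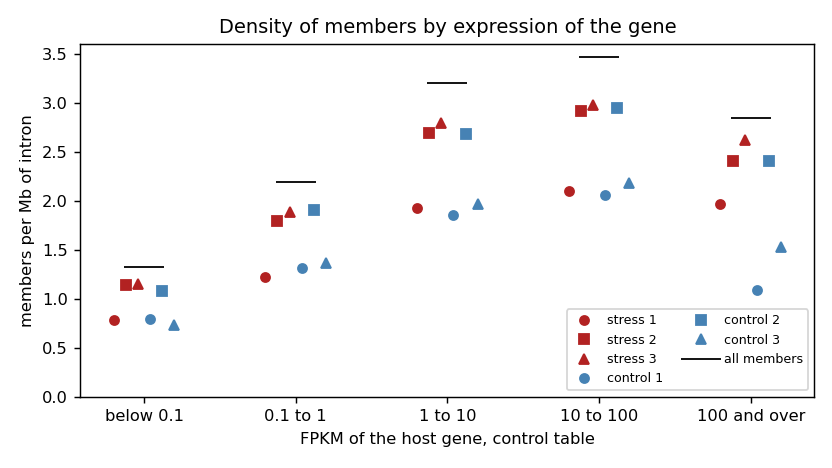
Members per Mb of intron by the FPKM of the host gene in the control table. Points are the members with a peak in each of 3 stress (red) and 3 control (blue) libraries, and black bars all 2466 members. The points lie at 0.729 to 1.15 per Mb below 0.1 FPKM and at 2.05 to 2.97 per Mb at 10 to 100 FPKM, and are subsets of the same members.

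Gene groups of the hippocampus differed widely in how densely they held members. Regulators of the cytoskeleton and small GTPases, which shape dendrites and spines, had 56 members in 32 of 51 genes, or 5.06 per Mb of intron, against 2.80 over all genes. Arhgap26 (a GTPase-activating protein) and Ank3 (ankyrin G, which organises the axon initial segment) held 4 each. Rap1gap2, Dock9, Dock1 and Kalrn (kalirin, an exchange factor that forms spines) held 3 each. Genes of cAMP and CREB signalling had 29 members in 15 of 39 genes (4.67 per Mb). They were led by Akap6 (5, an anchor of protein kinase A), Pde4d (5, which breaks down cAMP) and Akap7 (4, another such anchor). The list named calcium kinases and phosphatases had 22 in 12 of 29 genes (4.32 per Mb). It is broader than its name, and was led by Prkce (6, protein kinase C epsilon, which does not need calcium) and Itpr2 (3, a calcium release channel). Histone-modifying enzymes had 19 in 12 of 49 (4.41 per Mb), led by the deacetylase Hdac9 with 4. The mTOR and insulin pathway had 10 in 6 of 27 (4.95 per Mb), with 3 each in Rptor (the scaffold of mTOR complex 1) and Pik3cb (a PI3 kinase subunit).

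Channels, receptors and synaptic adhesion genes held few members for their long introns. Voltage-gated channels had 9 members in 7 of 40 genes over 10.4 Mb of intron, or 0.862 per Mb. These were 2 each in the calcium channel genes Cacna1c and Cacna2d3 and 1 each in Cacna2d1, Kcnd3, Kcnh5, Kcnip1 and Kcnip4. Postsynaptic scaffolds and synaptic adhesion genes had 11 in 10 of 26 genes (0.875 per Mb), of which 2 were in Nrxn2 (a presynaptic adhesion receptor). Glutamate receptors had 10 in 7 of 23 genes (1.13 per Mb), 4 of them in the kainate receptor gene Grik4. GABA receptors and synthesis had 4 in 3 of 18 (1.33 per Mb) and axon guidance 20 in 12 of 42 (1.47 per Mb), 8 of them in Ephb1. Presynaptic release genes (12, 1.94 per Mb) and cadherins (23, 2.13 per Mb) lay closer to all genes.

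These low lists were not silent. The median level was 9.20 FPKM for voltage-gated channels and 12.9 FPKM for postsynaptic scaffolds, in the control table. Intronic regions of a single library were close to average in voltage-gated channels, with 191 regions or 18.3 per Mb against 18.2 over all genes. Postsynaptic scaffolds had 16.0 per Mb. Relative to all genes, the density of voltage-gated channels was 0.308 for members and 1.01 for single-library regions. It was 0.312 and 0.879 for postsynaptic scaffolds, 0.405 and 0.686 for glutamate receptors, and 1.81 and 1.37 for cytoskeleton and GTPase regulators. For cAMP and CREB signalling it was 1.67 and 1.29, and for calcium kinases and phosphatases 1.54 and 1.28. The mTOR and insulin pathway had 1.77 and 1.47, and histone-modifying enzymes 1.57 and 1.05. GABA receptors and synthesis had 0.475 and 0.659, and axon guidance 0.525 and 0.939. The dense lists were thus above 1 for single-library regions too, and the glutamate and GABA lists were well below 1 for both. Taken library by library, the relative density of members ranged from 0.203 to 0.344 for voltage-gated channels, 0.238 to 0.360 for postsynaptic scaffolds and 0.329 to 0.476 for glutamate receptors. It ranged from 1.38 to 2.05 for cytoskeleton and GTPase regulators, 1.31 to 1.96 for cAMP and CREB signalling, and 1.37 to 1.79 for calcium kinases and phosphatases. These are recounts of 1 set of members, chosen for peaks in 4 or 5 of these libraries, so their likeness gives no independent support. The lists were chosen with results of these libraries known, and these are counts with no test. Without control library 2 the relative density of voltage-gated channels was 0.0743, and without stress library 3 it was 0.156. For postsynaptic scaffolds it was 0.195 without stress library 3, and for calcium kinases and phosphatases 2.40. The median gene body was 223 kb for voltage-gated channels and 185 kb for cytoskeleton and GTPase regulators.

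**Figure D5:**
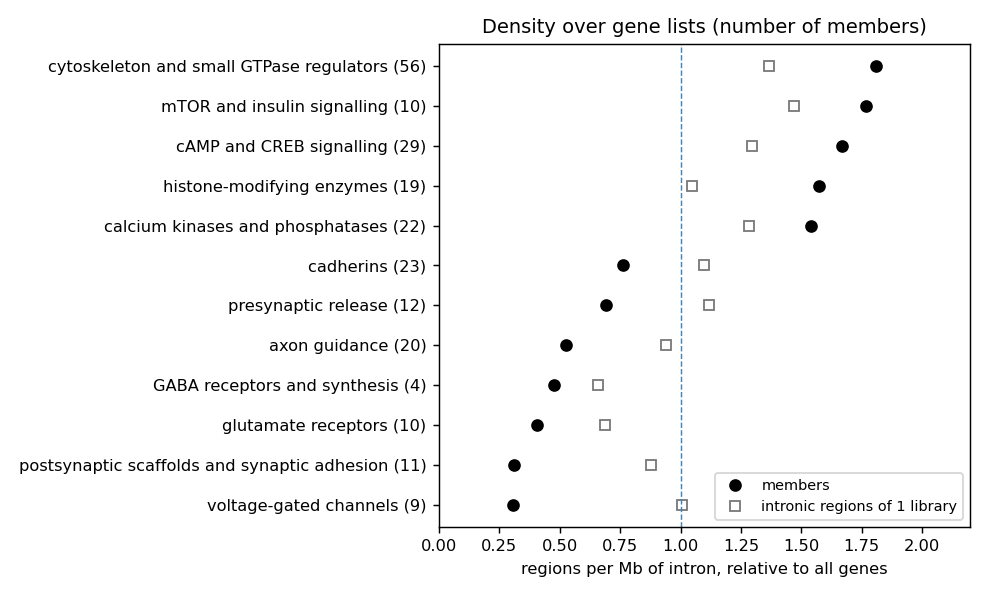
Intronic 5hmC regions per Mb of intron relative to all genes (dashed line at 1), for gene lists with at least 2 Mb of intron. Filled circles are members, with their number in parentheses, and open squares are intronic regions with a peak in 1 library. Voltage-gated channels (0.308) and postsynaptic scaffolds (0.312) are lowest for members, and cytoskeleton and small GTPase regulators (1.81) highest.

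Markers of single cell types held between 0 and 8 members a list. Dentate granule cell markers had 8 members in 3 of 10 genes over 1.38 Mb, of which 5 were in Glis3 (a zinc finger factor), 2 in Stxbp6 (a regulator of vesicle fusion) and 1 in Pdzd2. Oligodendrocyte markers had 5 in 2 of 13 genes, 4 of them in Plcl1 (a phospholipase C-like protein) and 1 in Mobp (a myelin protein). Markers of excitatory neurons, the CA1 field and blood had none, over 0.287, 0.524 and 0.0252 Mb of intron. Astrocyte markers had 1 each in Slc1a2 and Slc1a3 (glutamate uptake), microglia 1 in Itgam, endothelium 1 in Pecam1, precursors of oligodendrocytes 1 in Ptprz1 and inhibitory neurons 2 in Reln. Rora (3) and Plekhg1 (1) held those of thalamus and neighbouring tissue, Grik4 those of the CA3 field, and Clic6 that of choroid plexus.

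The gene with most members was Ephb1, a receptor tyrosine kinase for ephrin-B that guides axons, with 8 along its 433 kb on chromosome 9. A peak was present at 7, 8 and 7 of them in stress libraries 1 to 3 and at 2, 7 and 3 in control libraries 1 to 3. Control library 2 was thus as high as the stress libraries, and the other 2 control libraries were low. They lay in introns 1 (4 members), 2, 3 and 4 (2 members). The highest within-list percentiles were 97.3 in control library 2 and 94.8 in stress library 3, at chr9:101944393-101946205 and chr9:102105519-102106899. Rgs6, which shortens G protein signalling, held 7 over 542 kb, 6 of them in its second intron of 333 kb. Peaks were present at 4, 6 and 4 of the 7 in stress libraries and 6, 6 and 4 in control libraries, which overlap.

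Ptprm (a homophilic adhesion phosphatase) and Park2 (parkin, a ubiquitin ligase) also held 7 members each, over 688 and 1223 kb. Each of the following held 6: Bbs9 (ciliary transport), Prkce, St6galnac3 (a sialyltransferase), Ptprg (a receptor phosphatase), Ctnnd2 (delta-catenin, a dendritic adhesion protein) and Nckap5. Per length the densest of the 12 genes with most members was Nfkb1, which encodes the p105 precursor of NF-kappaB, with 5 members in 107 kb. They lay in introns 1, 4 and 6, from chr3:135292871-135294593 to chr3:135350834-135352116. Stress libraries 1 to 3 had a peak at 3, 5 and 5 of them and control libraries 1 to 3 at 2, 5 and 3. In Prkce, 5 of the 6 members had a peak in 5 libraries. Brsk2, a kinase of neuronal polarity, held 3 members in a single first intron of 31.4 kb.

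The members that ranked highest within their lists lay in genes of different functions. In intron 1 of Crim1 (a membrane protein that binds growth factors), chr17:78603536-78605934 was at percentile 94.9 and 98.9 in stress libraries 2 and 3 and at 98.8 and 99.1 in control libraries 2 and 3. In intron 1 of Klc1 (kinesin light chain, which carries cargo along axons), chr12:112999720-113002459 was at 95.7, 98.8 and 98.2 in stress libraries 1 to 3. It was at 96.8 in control library 2, and no peak was listed in control libraries 1 and 3. In intron 22 of Atp8a1, which flips phospholipids between membrane leaflets, chr5:68097607-68099137 was at 93.7 to 99.1 in 4 libraries. Intron 3 of Fbxw7 (a ubiquitin ligase subunit) had values from 90.7 in stress library 1 to 99.7 in stress library 2, with none in control library 1. Sertad2, a transcription coregulator, reached 99.9 in stress library 2 and 83.8 in control library 3, with no peak in stress library 1. These regions had a peak near the top of some lists and none listed in others. A library without a listed peak may still hold 5hmC below the lowest listed score, 50.

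Nr3c2 encodes the mineralocorticoid receptor, which binds corticosterone in hippocampal neurons. It held 3 members, and 1 of them was among the 8 highest in mean percentile of all 2466. That region, chr8:79547874-79549073 in intron 2, was at percentile 97.7, 94.9 and 94.4 in stress libraries 1 to 3 and at 97.4 in control library 2. No peak was listed there in control libraries 1 and 3. The other members, both in intron 8, had opposite patterns. At chr8:79742756-79744038 a peak was listed in stress library 2 and all 3 control libraries, at percentiles of 41.0 to 60.1. At chr8:79746965-79748616 it was listed in all 3 stress libraries (64.7, 24.4 and 67.7) and in control library 3 (9.57). Nr3c1, the glucocorticoid receptor, held none, but its body is 76.7 kb against 341 kb for Nr3c2. Of the 5 regions of any kind in Nr3c1, 3 were in 1 library, 1 in 2 and 1 in 3. Nr3c2 had 20 regions of any kind, of which 14 were in 1 library.

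Among the 504 members with 3 stress libraries and 1 control library, the highest after Klc1 and Nr3c2 were in Hivep2 (a zinc finger transcription factor), Ak5 (an adenylate kinase of neurons), Rasgef1a (a Ras exchange factor) and Itgb5 (an integrin). In all 6 of these the control library with the peak was control library 2, which has the longest control list. Among the 244 with 1 stress and 3 control libraries, the highest were in Cyb5b (a mitochondrial haem protein), Aig1, Cdkal1 (a tRNA-modifying enzyme), Cryl1, Lgr5 (an R-spondin receptor) and Ptprt (an adhesion phosphatase). The single stress library was stress 2 in Cyb5b, Cryl1 and Lgr5, stress 3 in Aig1 and Ptprt, and stress 1 in Cdkal1. These patterns were used to choose the regions and are not tested.

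Genes that answer glucocorticoids held 7 members in 5 of 30 genes. The density was 9.15 per Mb, from few regions in 0.765 Mb of intron. A second list, of glucocorticoid and mineralocorticoid signalling, shares Fkbp5 and held 7 in 5 of 23 genes (4.39 per Mb). Relative to all genes that list was at 1.57 for members and at 1.90 for single-library regions. Zbtb16, a transcription repressor induced by glucocorticoids, held 3. One of these, chr9:48549213-48551218 in intron 3, had a peak in all 3 stress libraries (percentiles 79.5, 57.5 and 25.5) and in control library 2 (20.4). The other members, in introns 2 and 3, each had a peak in 2 stress and 2 control libraries. At chr9:48542832-48544204 the percentiles were 78.3 and 58.8 in stress libraries 1 and 2 and 29.7 and 77.2 in control libraries 2 and 3. At chr9:48606208-48607958 they were 78.8 and 88.1 in stress libraries 2 and 3 and 57.9 and 59.1 in control libraries 2 and 3. Sgk1, a kinase induced by glucocorticoids, held 1 at chr10:21692578-21694395, in intron 3 of its long isoform, 90.6 kb from that isoform's start. Its percentiles were 27.7 and 18.6 in stress libraries 1 and 2 and 42.4 and 63.97 in control libraries 2 and 3. Fkbp5, which restrains the receptor, held 1 in intron 1 at chr17:28606062-28608913, with peaks in stress libraries 2 and 3 and control libraries 1 and 3. Plekhf1 and Il6ra (an interleukin-6 receptor chain) held 1 each in their first introns. Each of these 4 genes with a single member had 2 stress and 2 control libraries with a peak there. The 32 immediate early genes, which answer neuronal activity within minutes, held none, in 0.298 Mb of intron.

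Of the enzymes that write and erase DNA methylation, only Dnmt3a among Tet1, Tet2, Tet3, Dnmt1, Dnmt3a and Dnmt3b held a member. It lay in intron 6 at chr12:3888522-3889779, with percentiles of 84.5, 53.5 and 91.8 in stress libraries 1 to 3 and 92.8 and 78.6 in control libraries 1 and 2. Mbd5, of the methyl-binding family, held 1 member. The 5 members of Akap6 lay in introns 1, 2 and 5, and 4 of them had a peak in 5 libraries. The strongest, chr12:53829141-53831141, was at 97.4, 99.8 and 81.6 in the stress libraries and at 77.5 and 96.1 in control libraries 1 and 3. Of the 5 members of Pde4d, 4 lay in intron 3, of 708 kb, and all 5 had a peak in 4 libraries. Crebbp, the acetyltransferase partner of CREB, held 1 in intron 1 and Bdnf, Fos and Arc none. Fos, Tet2 and Dnmt3b each had 1 region with a peak in 4 libraries that did not count as intronic by its place. The bodies of Fos and Arc, 3.37 and 3.49 kb, leave little room outside exons and the 1 kb around a start.

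RNA of the host genes was compared between the 2 tables as log2((stress + 1)/(control + 1)), which understates the change of low genes. Among 11071 genes averaging 1 FPKM or more over both tables the median difference was 0.08, and among the 1442 host genes it was 0.11. At least 2-fold higher in the stress table were 3 host genes (0.208%), against 0.307% of all genes. At least 2-fold lower was 1 (0.0693%), against 0.289%. Without restraint Sgk1 was listed at 7.34 FPKM, and with it at 21.9. Plekhf1, which acts on endosomes, had 0.976 and 3.10 FPKM. Papd7, an RNA-tailing enzyme, was listed at 0 for controls, which can be a failed estimate, and at 7.29 FPKM after stress. The lower one was Clic6, a choroid plexus marker, at 3.17 FPKM for controls and 0.713 after stress. The summed choroid plexus markers, 235 and 65.4 FPKM, were lower too, and their part was not tested. There is 1 table per group and no replicate, so these values describe the tables and no test was made.

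Other host genes at the top of the range were Fkbp5 (5.55 FPKM for controls, 10.2 after stress), Lrrc8c (a volume-regulated channel subunit, 2.38 and 4.39), Sntb2 (a syntrophin, 3.15 and 5.51) and Arid5b (a DNA-binding coregulator, 2.82 and 4.81). At the bottom were Ntf3 (neurotrophin 3, 3.62 and 1.93 FPKM) and Klf7 (a factor for neurite growth, 10.7 and 6.45). Klf7 held 3 members, of which 2 had a peak in 1 stress and 3 control libraries. Host genes of members with 3 stress and 1 control library had a median RNA difference of 0.11 (381 genes), and hosts of members with 1 stress and 3 control libraries had 0.10 (188 genes). None of these 381 or 188 genes was 2-fold higher or lower. Over all genes only 0.307% were higher and 0.289% lower, so sets of this size say little. Genes of 50 kb or more had a median of 0.11 with a member (1111 genes) and 0.10 without one (2061 genes).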

How the data were processed

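The members, gene lists and tests were chosen with earlier results of these data known. Per the file contents, each 5hmC library has 1 deposited list of peaks with MACS names and a score per peak, and no score under 50. Per the submitters' processing notes, the build is mm9 and the tools named are Bowtie 0.12.9 and edgeR, with no role given. The sources used here do not state the MACS version, its settings or any input library. Per the labels' protocols, a library has 25000000 to 35000000 uniquely mapped reads of 50 bp, with no figure per library. The authors deposited 1 Cufflinks table per group of FPKM for 33262 RefSeq transcripts, with no counts. The notes name TopHat 1.0.12, Cufflinks 2.1.1 and Cuffdiff 2.1.1 for it.

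Peaks were merged and placed with Python 3.11.15 and numpy 2.4.6. FPKM of isoforms were summed per gene, and genes with a mean under 1 FPKM were left out of RNA differences. Stress and control libraries were compared by exact permutation (two-sided), and classes of region with exact sign-flip tests over 6 libraries, each family of 4 adjusted by the Benjamini-Hochberg method. Alternatives covered the peaks counted, merging, coverage, promoter width, annotation and left-out libraries. Regions were named for the 8 highest mean percentiles, the 8 longest and the 6 highest of each lopsided pattern. Genes were named for the 12 largest member counts, up to 3 per list, the 8 highest and 8 lowest RNA differences, and 17 fixed genes; other list members are named to complete a count and were chosen after their values were seen. On simulated data, 200 of 200 planted regions were recovered with their libraries and place. They were planted inside introns, away from real regions and with overlapping peaks, so this checks the code and not harder cases such as chained peaks. Sequences are not printed, since no genome of the mm9 build was used here.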

Additional observations from a re-analysis of the deposited data

How the results depend on the processing

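The number of members, 2466, depended on the peaks counted: 978 with the higher-scoring 50% of each list, 1439 with equally many peaks, the best-scoring, from each, and 854 with 5 of 6 libraries only. Leaving out a library, with a peak then required in exactly 4 of the other 5, gave 1078 to 1409. Gaps of 200 bp bridged, a library counted only when it covers 50% of a region and promoters of 2.5 kb kept it within 1.5 times. The stress table as annotation, which also lists 33262 transcripts, left every value as it was and is no real alternative. The stress minus control difference in first-intron share, 0.15 percentage points, turned to -0.43 with the higher-scoring 50%, -0.22 with the same number of peaks, -0.035 with 50% coverage and -0.72 with 5 libraries only, and ran from -1.10 to 0.72 when a library was left out. The differences in peak length, coverage and expression ratio kept their direction under every alternative tried. The cause of these moves was not tested. Against intergenic regions the score percentile difference was -2.96 with 50% coverage and -3.11 with 2.5 kb promoters, and the length difference 94.6 and 100 bp. All had an adjusted exact permutation p of 0.0417, while the unadjusted p was 0.03125, as in the main setting. Against exonic regions the percentile difference was -4.91 and -3.65 under the same settings (adjusted exact p 0.0417). Same-numbered libraries share only a number (correlations of their deviations 0.0155, -0.00162 and -0.00672). The replicate block leaves the differences in means the same by construction (99.3 bp, 6.15 and 0.15 percentage points, -0.15 in the ratio). Its exact permutation p were 0.25, 0.25, 0.75 and 0.5, where 3 pairs cannot go below 0.25. Chosen after seeing the data, the same alternatives were run for 6 list densities, the first-intron share of members (38.8% to 46.1%) and the expression ratio (2.49 to 3.44). Relative to all genes, voltage-gated channels lay between 0.0743 and 0.431 and postsynaptic scaffolds were at 0.146 with the same number of peaks and 0.195 without stress library 3. Calcium kinases were at 2.40 without stress library 3. All 6 lists stayed on their side of 1 in every alternative run. RNA counts of host genes were 2 to 4 higher and 1 lower under all 4 alternatives. Over all genes a pseudocount of 0.1 gave 65 higher and 63 lower, against 34 and 32. Centring moved the median of all genes by 0.08. Depth limits what the absence of a listed peak can show.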
